A study of Mus musculus with 4 samples.

Results

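Mitophagy receptors and mitochondrial quality control genes were followed here in B16F1 cells, a mouse melanoma cell line, and in the tumor repopulating cells (TRCs) grown from them. The 10 genes were chosen by name, as the *BNIP3* family (*Bnip3*, *Bnip3l*), the other outer membrane receptors *Fundc1* and *Fkbp8*, the kinase gene *Pink1*, the hypoxic mitochondrial protein gene *Mgarp*, the fusion genes *Mfn1* and *Mfn2*, the fission gene *Dnm1l* and the biogenesis coactivator gene *Ppargc1a*. They are 10 of the 39179 genes listed in each library, and all 10 passed the filter on low counts that left 11483 genes to be tested. The study compared 2 libraries of parental B16F1 cells with 2 libraries of TRCs, and both groups carry the replicate numbers 1 and 3. TRCs are the cells of spheroids that grew from single B16F1 cells in soft 3D fibrin gels, and parental cells are the same line under its usual 2D culture, with no other agent or genetic change named for either group. Each group is the same established line, so the effect of the gel and of the selection of surviving cells cannot be told apart. The sources used here do not say that the 2 samples of a group came from separate cultures, so p-values measure the spread between these samples, which may be technical.

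Mitophagy is the removal of damaged or surplus mitochondria by autophagy. In one route, receptors anchored in the outer mitochondrial membrane bind the LC3 and GABARAP proteins of the forming autophagosome directly, and *BNIP3* and its relative NIX, encoded by *Bnip3l*, are the receptors best known for induction under low oxygen. In the other route the kinase PINK1 accumulates on depolarized mitochondria and starts the build-up of ubiquitin chains on their surface, after which adaptor proteins link these chains to the autophagosome. Fusion, fission and new synthesis of mitochondria set the size and supply of the organelles on which both routes act.

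Counts on genes lay between 35948295 and 43511554 per library, and 3 counts, taken as the smallest detectable level, corresponded to 0.0675 to 0.0850 CPM (counts scaled to a common TMM-adjusted library size). This floor reflects counting error alone. Reads aligning to several places were assigned to no gene, and such alignments were 15.2% and 17.1% in parental replicates 1 and 3, 18.3% in TRC replicate 1 and 25.2% in TRC replicate 3. Among 9 melanocyte marker genes all 9 were tested, and their summed level was 16261 to 19458 CPM in parental cells and 24575 to 27363 CPM in TRCs, with *Dct*, an enzyme of melanin synthesis, as the 1 gene called higher (log2 fold change 1.08, FDR = 0.000307). Of 8 leukocyte, 6 endothelial and 6 keratinocyte markers, 4, 3 and 4 had 0 counts in all 4 libraries. Among these were *Ptprc*, *Cd3e*, *Itgam*, *Cdh5*, *Kdr*, *Emcn*, *Krt5*, *Krt14*, *Krt1* and *Krt10*. The summed levels of these 3 lists were 0.453 to 5.11 CPM in parental cells and 0.553 to 2.50 CPM in TRCs. Only *Cd68* (leukocyte) and *Vwf* (endothelial) were tested. *Cd68* had 4.12 and 1.76 CPM in the parental libraries and 1.59 and 1.85 CPM in the TRC libraries (log2 fold change −0.78, FDR = 0.344). *Vwf* had 1.42 and 0.368 CPM against 0.529 and 2.45 CPM (log2 fold change 0.73, FDR = 0.575). The groups overlapped for both. The 7 fibroblast markers summed to 10.1 to 12.1 CPM in parental cells and 3.24 to 5.80 CPM in TRCs, and 3 of them were tested. *Col1a2* had 6.70 and 7.79 CPM in the parental libraries and 1.52 and 1.01 CPM in the TRC libraries. It fell by 2.52 on the log2 scale (FDR = 4.15e-06). *Col1a1* (log2 fold change −0.38, FDR = 0.768) and *Pdgfra* (0.13, FDR = 0.915) were not called, and the groups overlapped for both. The part of other cell types in the results was not tested.

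In TRCs, 5 of the 10 genes rose and none fell at an FDR under 0.05 in edgeR's exact test, with Benjamini-Hochberg adjustment over all 11483 genes. The 5 genes were *Mgarp*, *Bnip3*, *Bnip3l*, *Pink1* and *Fundc1*. *Mgarp* passed the filter through its TRC libraries alone and so had to differ, and without it 4 of 9 genes rose. Of all genes tested, 8.81% were called higher and 7.05% lower in TRCs. At an unadjusted p under 0.05 again 5 of the 10 genes, *Mgarp* included, were higher and 0 lower. All 11483 genes tested gave 1703 higher and 1517 lower at this p. Of the 9 genes other than *Mgarp*, 3 rose without parental replicate 1, 2 without parental replicate 3, 3 without TRC replicate 1 and 2 without TRC replicate 3. *Mgarp* was called without either parental library and was not tested without either TRC library. The median log2 fold change was 0.42 over the 10 genes, *Mgarp* included, and 0.0034 over all genes tested. Both TRC libraries lay above both parental libraries for the same 5 genes and below them for *Mfn1*, where 30.2% and 30.4% of all genes tested had these orders, 60.6% in all. In bulk RNA a larger share of cells that express a gene and more RNA per cell cannot be told apart. With 2 libraries in each group, an exact two-sided permutation test cannot go below p = 0.333, and the FDR of each gene therefore draws on the dispersion estimated over all genes. Standard errors (SE) of log2 fold changes are from DESeq2.

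**Figure D1:**
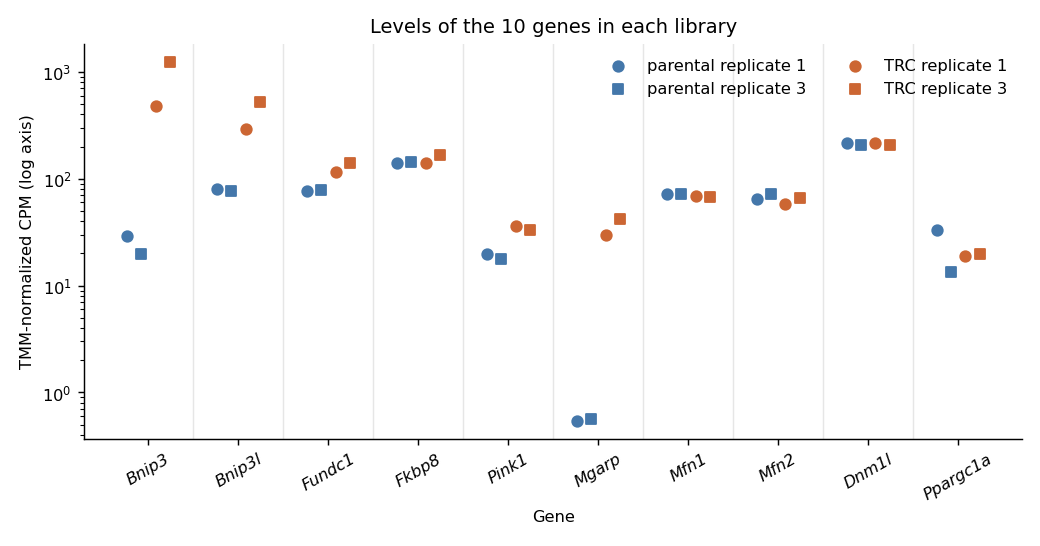
TMM-normalized CPM on a log axis for each of the 10 genes, with 1 point per library (circles replicate 1, squares replicate 3, blue parental, orange TRC). *Bnip3* runs from 19.7 CPM in parental replicate 3 to 1240.5 CPM in TRC replicate 3, *Mgarp* lies under 1 CPM in both parental libraries, and the points of *Dnm1l* lie between 207 and 217 CPM.

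*Bnip3* (ENSMUSG00000078566, minus strand of chromosome 7 from 138890836 to 138909519 in GRCm38) encodes a BH3-domain protein of the outer mitochondrial membrane that binds LC3. Its level was 29.2 and 19.7 CPM in parental replicates 1 and 3, and 477 and 1240.5 CPM in TRC replicates 1 and 3. The lower TRC library lay far above the higher parental library, and the TRC libraries themselves differed 2.60-fold. The change was 35.1-fold, a log2 fold change of 5.13 (SE 0.38, FDR = 2.37e-27), and *Bnip3* ranked 13 among 11483 genes by log2 fold change. Without TRC replicate 3 the log2 fold change was 4.28. By mean CPM, *Bnip3* ranked 6853 among the genes tested in parental cells and 98 in TRCs. It took 0.00303% and 0.00193% of the counts on genes in the parental libraries and 0.0488% and 0.119% in the TRC libraries.

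*Bnip3l* (ENSMUSG00000022051, minus strand of chromosome 14 from 66985239 to 67008877) encodes NIX, the receptor known for clearing mitochondria from maturing red cells. It had 79.9 and 77.4 CPM in the parental libraries and 290.0 and 518 CPM in the TRC libraries. The parental libraries were nearly equal, and TRC replicate 3 was again the higher TRC library, by 1.79-fold. The log2 fold change was 2.36 (SE 0.28, FDR = 3.06e-13), a 5.14-fold change, and it lay between 1.88 and 2.71 when each library was left out in turn. A processed pseudogene, *Bnip3l-ps* on chromosome 12, had 10, 6, 22 and 48 counts in the 4 libraries in the same order, against 3553, 2732, 12054 and 21551 for *Bnip3l*. Reads that match both copies equally were not counted, so *Bnip3l* may be undercounted to an unknown extent.

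*Mgarp* (ENSMUSG00000037161, minus strand of chromosome 3 from 51388412 to 51396738) encodes a mitochondrial membrane protein whose transcript is induced by hypoxia and which has been linked to the transport of mitochondria along microtubules. It had 24 and 20 counts in the parental libraries, which is 0.540 and 0.567 CPM, and 1244 and 1739 counts in the TRC libraries, which is 29.9 and 41.8 CPM. The groups were far apart and the parental libraries were close, while TRC replicate 3 was the higher TRC library, by 1.40-fold. The log2 fold change of 6.01 (SE 0.36, FDR = 2.83e-41) ranked 3 among all genes tested. The filter asked for 1 CPM in at least 2 libraries, which *Mgarp* met in TRCs alone, and it was not tested where 1 CPM was required in 3 libraries.

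The RefSeq promoter windows of GRCm38.p6 were searched for the core of the hypoxia response element, the site bound by hypoxia-inducible factors, spelled ACGTG or GCGTG on either strand. A window here is the 250 bases before the annotated start, and 9 of the 10 genes had a window, with no entry for *Bnip3l*. The core was found in 38.6% of 32851 windows and in 41.5% of 27025 genes with any window. It was found in 7 of the 9 genes, namely *Bnip3*, *Mgarp*, *Pink1*, *Fkbp8*, *Mfn2*, *Dnm1l* and *Ppargc1a*, and not in the windows of *Mfn1* and *Fundc1*. The *Dnm1l* match lay in a window from 16358576 to 16358825, inside the gene as placed below. Its window further upstream, from 16359032 to 16359281, held 0 matches. The *Fundc1* window, from 17572008 to 17572257, also lay inside its gene, so bases upstream of that gene were not searched. In *Bnip3* there were 5 matches, which began 117, 108, 107, 99 and 35 bases before the start, and those at 108 and 107 are the palindrome CACGTG read on both strands. *Mgarp* had 1 match, 219 bases before the start. *Pink1* had 1 match at 47 bases, and *Fkbp8*, which was not called, had 2 at 210 and 65 bases. The windows of 5 genes are shown 5′ to 3′ along the gene's strand with each match in capitals, since they hold the most matches (*Bnip3*), no match (*Mfn1*) and genes that rose (*Mgarp*, *Pink1*) or were not called (*Fkbp8*). They are chr7:138909507-138909756, chr3:51396548-51396797 and chr4:138326297-138326546 on the minus strand and chr8:70527493-70527742 and chr3:32529232-32529481 on the plus strand.
Bnip3: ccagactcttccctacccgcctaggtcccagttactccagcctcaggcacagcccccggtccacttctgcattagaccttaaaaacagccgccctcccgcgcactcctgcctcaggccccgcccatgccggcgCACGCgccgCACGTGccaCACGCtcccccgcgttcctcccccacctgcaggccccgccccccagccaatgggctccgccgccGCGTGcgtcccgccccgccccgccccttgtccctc
Mgarp: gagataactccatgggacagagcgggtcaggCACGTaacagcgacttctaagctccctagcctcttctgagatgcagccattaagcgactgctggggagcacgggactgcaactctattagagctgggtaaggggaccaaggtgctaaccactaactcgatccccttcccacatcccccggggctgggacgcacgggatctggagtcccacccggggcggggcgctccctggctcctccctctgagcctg
Pink1: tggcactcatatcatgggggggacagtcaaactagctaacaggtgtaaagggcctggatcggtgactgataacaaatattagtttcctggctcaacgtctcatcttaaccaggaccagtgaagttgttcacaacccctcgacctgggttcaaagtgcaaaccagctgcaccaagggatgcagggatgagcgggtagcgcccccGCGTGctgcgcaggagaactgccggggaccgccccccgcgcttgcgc
Fkbp8: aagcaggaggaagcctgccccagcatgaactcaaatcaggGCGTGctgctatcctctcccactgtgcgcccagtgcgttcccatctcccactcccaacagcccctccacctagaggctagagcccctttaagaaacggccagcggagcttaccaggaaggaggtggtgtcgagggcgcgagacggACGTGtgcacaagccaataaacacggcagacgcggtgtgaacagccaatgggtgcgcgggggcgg
Mfn1: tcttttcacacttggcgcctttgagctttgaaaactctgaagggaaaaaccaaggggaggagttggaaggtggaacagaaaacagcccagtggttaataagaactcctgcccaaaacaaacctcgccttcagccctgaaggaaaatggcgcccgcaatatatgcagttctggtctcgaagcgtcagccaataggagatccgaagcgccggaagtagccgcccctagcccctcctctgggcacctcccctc
The match is a description of these letters, not of a bound site. For comparison, the core was held by 19 of 19 hypoxia-inducible genes with a window, 23 of 25 core autophagy genes, 6 of 8 other receptors, 10 of 14 proteases and chaperones, 12 of 17 biogenesis genes, 14 of 22 PINK1 and ubiquitin genes, 11 of 19 mitochondrial content genes and 6 of 12 fusion and fission genes.

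*Pink1* (ENSMUSG00000028756, minus strand of chromosome 4 from 138313409 to 138326307) encodes the kinase that marks depolarized mitochondria. It had 19.7 and 17.7 CPM in the parental libraries and 36.04 and 33.1 CPM in the TRC libraries. Replicates differed little within either group, and TRC replicate 1 was the higher TRC library, unlike for *Bnip3*, *Bnip3l* and *Mgarp*. The log2 fold change was 0.89 (SE 0.23, FDR = 0.0103), a 1.85-fold change. The call was lost without parental replicate 3 (FDR = 0.123), without TRC replicate 1 (FDR = 0.183) and without TRC replicate 3 (FDR = 0.0895), with log2 fold changes from 0.81 to 0.96 over the 4 fits with a library left out.

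*Fundc1* (ENSMUSG00000025040, minus strand of chromosome X from 17556564 to 17572325) encodes an outer membrane receptor of hypoxia-induced mitophagy that is regulated mainly by phosphorylation. It had 76.7 and 78.8 CPM in the parental libraries and 116 and 142 CPM in the TRC libraries. TRCs differed from parental cells by 0.73 on the log2 scale (SE 0.21, FDR = 0.0148), a 1.66-fold change. It was not called without parental replicate 1 (FDR = 0.0666), parental replicate 3 (FDR = 0.0945) or TRC replicate 3 (FDR = 0.238). Both TRC values lay above both parental values, and TRC replicate 3 was the higher one.

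*Fkbp8* (ENSMUSG00000019428, plus strand of chromosome 8 from 70527724 to 70535328) encodes a receptor and immunophilin relative that also anchors anti-apoptotic BCL2 proteins. Its level was 142 and 143 CPM in the parental libraries and 139.8 and 168 CPM in the TRC libraries, and the groups overlapped. Its log2 fold change was 0.11 (SE 0.20, FDR = 0.806), with a 95% interval from 0.820-fold to 1.43-fold. The ratio of *Fundc1* to *Fkbp8* within a library, in TPM (counts per exon length, scaled to the same total in every library), was 1.04 and 1.06 in parental cells and 1.59 and 1.62 in TRCs. With the longest transcript as the length it was 0.492 and 0.499 against 0.752 and 0.766, so which of the pair was more abundant depends on the length used.

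*Bnip3* was the least abundant of the 4 receptors in parental cells and the most abundant in TRCs. As a share of their summed TPM, *Bnip3* made up 13.2% and 9.26% in the parental libraries and 57.5% and 70.3% in the TRC libraries. *Bnip3l* held 21.2% and 21.4% in parental cells and 20.6% and 17.2% in TRCs, a small difference whose direction depends on the length used, since with the longest transcript the shares were 15.5% and 15.4% against 17.9% and 15.4%. *Fundc1* held 33.5% and 35.7% against 13.5% and 7.73%, and *Fkbp8* held 32.1% and 33.7% against 8.44% and 4.76%. With the longest transcript as the length, the share of *Bnip3* was 10.5% and 7.26% in parental cells and 54.7% and 68.6% in TRCs. On that scale *Fundc1* held 24.4% and 25.7% against 11.8% and 6.94%, and *Fkbp8* held 49.6% and 51.6% against 15.6% and 9.07%. The ratio of *Bnip3* to *Bnip3l* in TPM was 0.623 and 0.433 in parental cells and 2.80 and 4.08 in TRCs. Such a ratio is taken within a library and does not depend on the scaling between libraries.

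**Figure D2:**
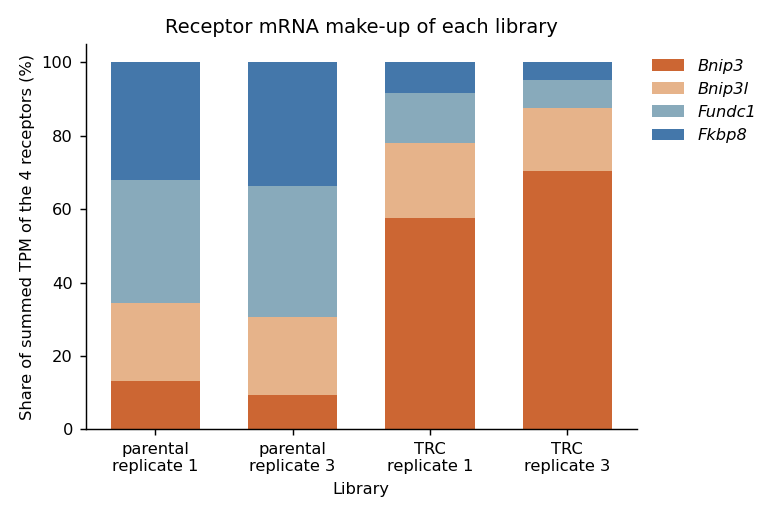
Share of each receptor gene in the summed TPM of *Bnip3*, *Bnip3l*, *Fundc1* and *Fkbp8*, in percent, as 1 stacked bar per library. The *Bnip3* part grows from 13.2% and 9.26% in the parental libraries to 57.5% and 70.3% in the TRC libraries.

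*Mfn1* and *Mfn2* encode the mitofusins, GTPases that join outer membranes, and *Dnm1l* encodes the dynamin-related GTPase that divides mitochondria. None of the 3 was called. *Mfn1* (ENSMUSG00000027668, chromosome 3 from 32529465 to 32579239) had 72.5 and 71.3 CPM in the parental libraries and 69.7 and 67.0 CPM in the TRC libraries. Both TRC values lay below both parental values, by a log2 fold change of −0.07 (SE 0.20, FDR = 0.867). *Mfn2* (ENSMUSG00000029020, chromosome 4 from 147873599 to 147904704) had 64.96 and 71.4 CPM against 57.5 and 66.6 CPM, and the groups overlapped. Its log2 fold change was −0.14 (SE 0.21, FDR = 0.746). *Dnm1l* (ENSMUSG00000022789, chromosome 16 from 16312230 to 16358959) had 217 and 207 CPM against 215 and 208 CPM, and its log2 fold change was −0.0025 (SE 0.18, FDR = 0.998), the smallest in size of the 10 genes. The 95% intervals of the fold ran from 0.727 to 1.24 for *Mfn1*, from 0.681 to 1.22 for *Mfn2* and from 0.777 to 1.28 for *Dnm1l*, so a rise or fall of 1.5-fold lay outside all 3 at this depth and spread. The ratio of *Dnm1l* to the 2 mitofusins in TPM was 1.71 and 1.56 in parental cells and 1.84 and 1.68 in TRCs, and the groups overlapped.

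*Ppargc1a* (ENSMUSG00000029167, minus strand of chromosome 5 from 51454250 to 51567726) encodes the coactivator that drives mitochondrial biogenesis and that marks an oxidative subset of melanomas. It had 33.4 CPM in parental replicate 1 and 13.4 CPM in parental replicate 3, a 2.49-fold gap, and 19.0 and 19.6 CPM in the TRC libraries. Both TRC values lay between the parental values, so no direction can be given. Its fitted log2 fold change was −0.28 (SE 0.40, FDR = 0.696), and it was 0.52 without parental replicate 1 and −0.80 without parental replicate 3.

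**Figure D3:**
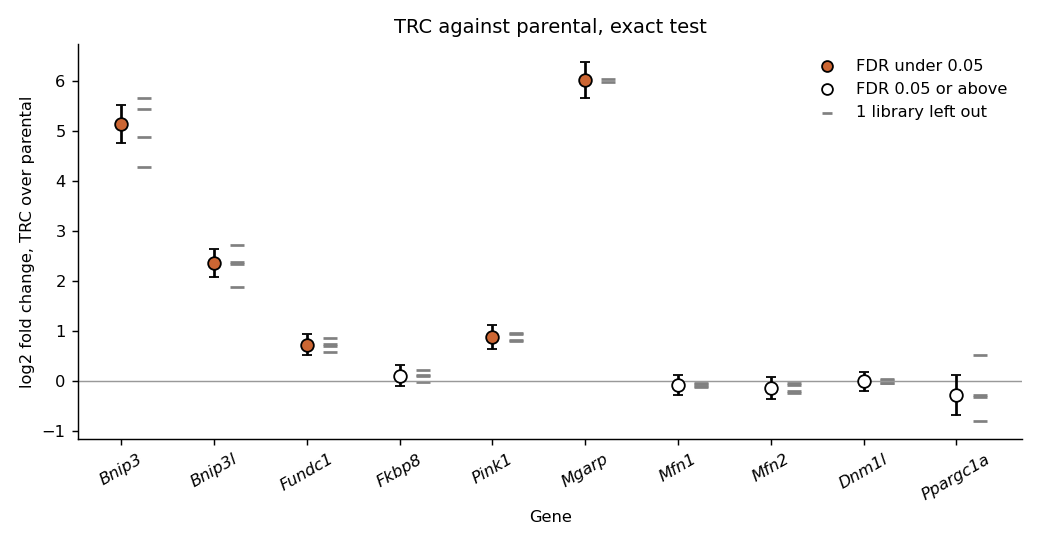
log2 fold change of TRC over parental for the 10 genes, with DESeq2 SE as error bars, filled where the FDR of the exact test was under 0.05, and grey dashes for the fits with 1 library left out (2 for *Mgarp*, 4 for the others). *Mgarp* at 6.01 and *Bnip3* at 5.13 stand highest, and the dashes of *Ppargc1a* lie on both sides of 0.

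Ordered by level per exon length, *Dnm1l* led in parental cells with 137 ± 5.21 TPM (SD, n = 2), before *Fundc1* with 111 ± 1.81, *Fkbp8* with 105 ± 0.656 and *Bnip3l* with 68.4 ± 1.70 TPM. *Mfn2* (44.01 ± 2.81 TPM), *Mfn1* (39.4 ± 0.579 TPM) and *Bnip3* (36.2 ± 10.1 TPM) followed. *Bnip3* did not differ from *Mfn2* or *Mfn1* beyond the spread of their libraries. *Pink1* with 23.5 ± 1.82, *Ppargc1a* with 11.9 ± 7.23 and *Mgarp* with 0.898 ± 0.0287 TPM were lowest. In TRCs the order began with *Bnip3* at 1196 ± 689 TPM (SD, n = 2), *Bnip3l* at 333 ± 113 and *Fundc1* at 176 ± 13.7 TPM. *Mgarp* had moved to the place after *Dnm1l* and *Fkbp8*, with 55.5 ± 9.44 TPM, and *Pink1*, *Mfn2* and *Mfn1*, at 41.8 ± 5.22, 38.4 ± 1.49 and 36.05 ± 3.36 TPM, overlapped with their neighbours. *Ppargc1a* was lowest at 9.42 ± 0.388 TPM. The place of *Fkbp8* depends on the length used, since its annotated exons span 4529 bases and its longest transcript 1799 bases. With the longest transcript it came first in parental cells, at 203 TPM. The order of *Mfn1* and *Mfn2* in parental cells, and that of *Pink1*, *Mfn2* and *Mfn1* in TRCs, also changed with the length used.

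The levels of *Bnip3*, *Bnip3l* and *Mgarp* differed between the TRC libraries in the same direction as those of other hypoxia-inducible genes. TRC replicate 3 lay above TRC replicate 1 by 1.38 on the log2 scale for *Bnip3*, 0.84 for *Bnip3l* and 0.48 for *Mgarp*. For 22 hypoxia-inducible genes chosen as targets of hypoxia-inducible factors, the median of this gap was 0.91, and 20 of the 22 were higher in TRC replicate 3. The median gap of all genes tested was 0.00068 with an SD of 0.41, and the gap of *Mgarp* lay little above this SD. In this direction, 0.566% of all genes tested had a gap as large as that of *Bnip3*, and 2.49% as large as that of *Bnip3l*. TRC replicate 3 was also the library with the largest share of alignments that were not unique, and the part of either in these values was not tested. Between groups, 18 of the 21 hypoxia-inducible genes tested rose and 1 fell, with a median log2 fold change of 2.05. Of all genes tested, 8.81% were called higher and 7.05% lower. This list was chosen with earlier results of these data known. *Ankrd37* rose by 5.58, *Pdk1*, which keeps pyruvate out of the mitochondrion, by 4.39, *Egln3*, an oxygen-sensing prolyl hydroxylase, by 4.05 and *Ero1l*, an oxidase of the endoplasmic reticulum, by 3.18 on the log2 scale. The 1 gene that fell, named after its value was seen, was *Pfkfb3*, with a log2 fold change of −0.72 (FDR = 0.0375) and an FDR of 0.05 or above in 6 of the 13 alternative fits.

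The genes with the profile most like that of *Bnip3* over the 4 libraries, by Euclidean distance of log2(CPM + 0.5) centred on each gene's mean, were *Rasd2* (distance 0.221), *Kbtbd11* (0.443) and *Selenbp1* (0.720). *Rasd2* had 1.24 and 0.737 CPM in the parental libraries and 24.2 and 63.1 CPM in the TRC libraries. *Selenbp1* had 17.4 and 16.5 CPM against 202 and 642 CPM. For *Mgarp* the nearest were *Kbtbd11* (0.368), *Ankrd37* (0.702) and *Rasd2* (0.803). *Kbtbd11* had 1.01 and 0.850 CPM in parental cells and 35.7 and 69.5 CPM in TRCs. All of these were called higher, but they were picked by likeness to called genes in the same libraries, so this adds no support. The measure rests on 4 libraries and mostly reflects the size of the difference between the groups.

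The wider machinery was described by 6 lists of other mitophagy receptors, the PINK1 and ubiquitin pathway, fusion and fission, biogenesis, mitochondrial proteases and chaperones, and core autophagy. Together they hold 118 genes that are not among the 10, of which 113 were tested. In TRCs 3 of them rose and 7 fell, and 9 were higher and 16 lower when p was not adjusted (under 0.05). Of all 11483 genes tested, 1703 were higher and 1517 lower at this unadjusted p. Among these 11483 genes, 5773 had a positive and 5710 a negative log2 fold change. Over these 113 genes the log2 fold change had a median of −0.07. Leaving out parental replicate 3, TRC replicate 1 or TRC replicate 3 left fewer that fell, and leaving out parental replicate 1 left more. Except in the fit without TRC replicate 1, these were not all among the 7. These shares, 3 and 7 of 113, lie below or near the 8.81% and 7.05% of all genes tested.

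None of the 9 other receptors tested was called, and at an unadjusted p under 0.05 there were 2 higher and 1 lower (DESeq2's Wald test called *Nlrx1* higher, with an adjusted p of 0.0372, and the exact test without parental replicate 1 called *Phb2* lower, with an FDR of 0.0497). *Nlrx1*, a mitochondrial NOD-like receptor, had 4.50 and 3.43 CPM in the parental libraries and 8.49 and 7.52 CPM in the TRC libraries (log2 fold change 1.01, FDR = 0.0800). *Phb2*, the inner membrane receptor prohibitin, had 364 and 468 CPM against 248 and 311 CPM (log2 fold change −0.57, FDR = 0.0974). *Fundc2* had 106 and 112 CPM against 143 and 158 CPM (log2 fold change 0.47, FDR = 0.149), and *Nipsnap2* had 65.5 and 58.7 CPM against 78.9 and 82.2 CPM (log2 fold change 0.37, FDR = 0.259).

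In the PINK1 and ubiquitin list, 2 of 26 genes tested rose and 2 fell, with a median log2 fold change of −0.16. Among all genes tested 8.81% rose and 7.05% fell. *Sqstm1*, the ubiquitin-binding autophagy adaptor p62, fell from 1486 and 1451 CPM in the parental libraries to 637 and 662 CPM in the TRC libraries, a log2 fold change of −1.18 (SE 0.18, FDR = 1.26e-05). *Calcoco1*, an autophagy adaptor related to the mitophagy adaptor *Calcoco2*, rose from 31.8 and 21.9 CPM to 67.5 and 55.3 CPM, a log2 fold change of 1.19 (SE 0.27, FDR = 0.000182). Both calls held in all 13 alternative fits. *Vdac1*, the main channel of the outer membrane, had 441 and 544 CPM in parental cells and 645 and 1339 CPM in TRCs. It rose by 1.01 on the log2 scale (SE 0.32, FDR = 0.0151). Without TRC replicate 3 its log2 fold change was 0.39 (FDR = 0.508), and the call was also lost without parental replicate 1 (FDR = 0.138) or parental replicate 3 (FDR = 0.0634). *Parl*, the protease that cleaves PINK1 in healthy mitochondria, fell from 61.4 and 73.2 CPM to 42.2 and 44.2 CPM, a log2 fold change of −0.64 (SE 0.22, FDR = 0.0340), and its FDR reached 0.269 without parental replicate 3, 0.265 without TRC replicate 1 and 0.215 without TRC replicate 3.

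Of 15 other fusion and fission genes tested, 0 rose and 1 fell by the exact test, and before adjustment 0 were higher and 2 lower (p under 0.05). The single fall is near the 7.05% of all genes tested that fell, where 8.81% rose. *Mtfp1*, an inner membrane protein of the fission process, had 14.6 and 19.1 CPM in parental cells and 8.13 and 7.55 CPM in TRCs (log2 fold change −1.10, FDR = 0.0171). Its FDR was 0.210 without parental replicate 3, 0.155 without TRC replicate 1 and 0.209 without TRC replicate 3. The next smallest FDRs were those of *Mtfr2* (log2 fold change −0.72, FDR = 0.150), *Spire1* (0.36, FDR = 0.285) and *Mtch2* (−0.35, FDR = 0.310). *Opa1*, *Fis1* and *Mff* had log2 fold changes of −0.11, 0.37 and 0.23, and none was called.

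In the biogenesis list 16 of 17 genes had a negative log2 fold change, against 5710 of all 11483 genes tested. The median was −0.35, and 1 gene was called lower. This was *Pprc1*, a serum-inducible coactivator related to *Ppargc1a*, which fell from 124 and 148 CPM in the parental libraries to 53.8 and 41.4 CPM in the TRC libraries, a log2 fold change of −1.52 (SE 0.23, FDR = 4.48e-08). *Twnk*, the helicase of the mitochondrial genome, had a log2 fold change of −0.65 (FDR = 0.0539), *Polrmt*, its RNA polymerase, of −0.55 (FDR = 0.166) and *Tfam*, its packaging factor, of −0.43 (FDR = 0.188). Among 17 mitochondrial proteases and chaperones, 0 rose and 4 fell, with a median of −0.34 and, before adjustment, 0 higher and 7 lower (p under 0.05). For both lists the background is all 11483 genes tested, of which 8.81% rose and 7.05% fell. Before adjustment 1703 of these were higher and 1517 lower. *Hspd1*, the matrix chaperonin, fell from 1187 and 1635 CPM to 608 and 601 CPM, a log2 fold change of −1.22 (SE 0.22, FDR = 3.20e-05). *Htra2*, an intermembrane space protease, fell from 144 and 138 CPM to 90.2 and 61.2 CPM (log2 fold change −0.90, FDR = 0.00476, and 0.212 without TRC replicate 3). *Hspe1*, the co-chaperonin of *Hspd1*, fell from 203 and 279 CPM to 148 and 144 CPM (log2 fold change −0.73, FDR = 0.0224), and its FDR was 0.330 without parental replicate 3, 0.166 without TRC replicate 1 and 0.198 without TRC replicate 3. *Parl* was the other gene. Without parental replicate 3, TRC replicate 1 or TRC replicate 3 fewer genes of the list were called lower. Without parental replicate 3 or TRC replicate 3 these were not all among the 4. *Hspa9*, another mitochondrial chaperone, was not called with all libraries (log2 fold change −0.77, FDR = 0.0837). Its log2 fold change was −1.25 without TRC replicate 3 and −1.09 without parental replicate 3.

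In the core autophagy list 25 of 31 genes had a positive log2 fold change, against 5773 of all 11483 genes tested. The median was 0.25, and 1 gene was called, where 8.81% of all genes tested were called higher and 7.05% lower. *Atg9a*, the transmembrane lipid scramblase that seeds autophagosomes, rose from 65.2 and 72.9 CPM in the parental libraries to 135 and 176 CPM in the TRC libraries, a log2 fold change of 1.17 (SE 0.23, FDR = 4.03e-05), and was called in all 13 alternative fits. Among the ATG8 genes whose products the receptors bind, *Gabarapl1* had 148 and 129.8 CPM against 215 and 182 CPM (log2 fold change 0.51, FDR = 0.116) and *Gabarapl2* had 62.3 and 65.2 CPM against 93.4 and 83.5 CPM (log2 fold change 0.47, FDR = 0.132). *Pik3r4*, the regulatory subunit of the autophagy lipid kinase, had a log2 fold change of 0.50 (FDR = 0.123). None of the 3 passed the threshold. Without parental replicate 1 the list had 2 genes called higher, the added one being *Atg4c* (log2 fold change 1.01, FDR = 0.0368), an ATG8-processing protease.

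A list of 24 mitochondrial housekeeping genes of the matrix and membranes, which includes *Vdac1*, had a median log2 fold change of −0.21, with 5 genes above and 19 below 0. *Vdac1* was the 1 gene called, where 8.81% of all genes tested were called higher and 7.05% lower. Without parental replicate 1 the list had 0 genes called higher and 2 called lower, *Slc25a5* (FDR = 0.0113) and *Idh3a*, a subunit of a citric acid cycle dehydrogenase (FDR = 0.0493). The next smallest FDR was that of *Slc25a5*, an ADP/ATP carrier, with a log2 fold change of −0.62 (FDR = 0.0910). The summed level of the list was 8775 and 10725 CPM in parental cells and 8007 and 9723 CPM in TRCs, and the groups overlapped. mRNA levels do not measure the number of mitochondria or the rate of mitophagy.

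**Figure D4:**
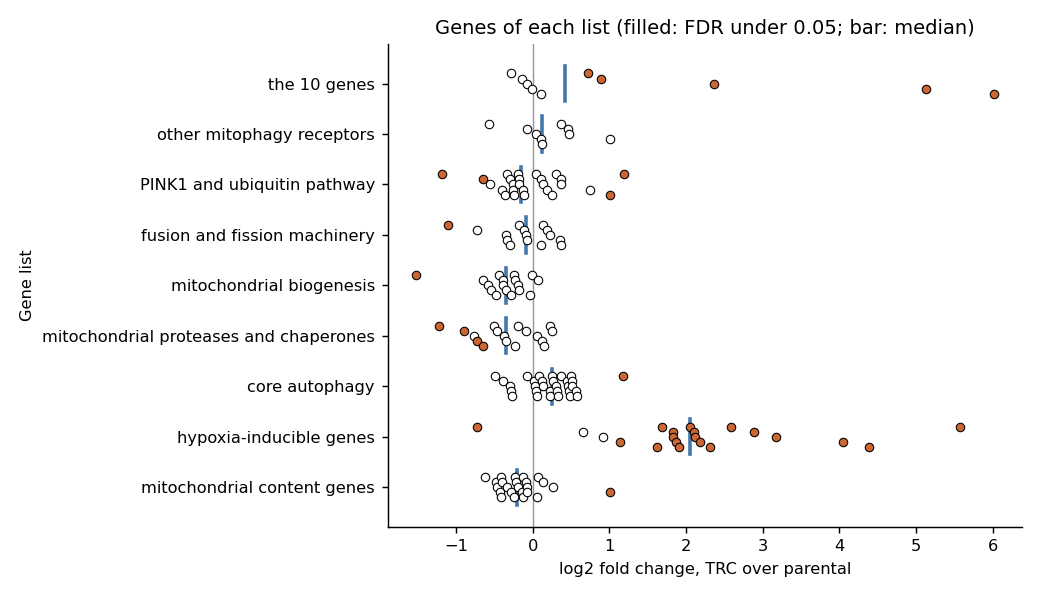
log2 fold change of TRC over parental for each tested gene of the 10 genes, the 6 pathway lists, the hypoxia-inducible genes and the mitochondrial content genes, filled where the FDR was under 0.05, with a bar at the median of each list. The hypoxia-inducible genes centre on 2.05, and the biogenesis and protease lists on −0.35 and −0.34.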

How the data were processed

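The authors made stranded single-end RNA libraries and trimmed the reads with Trimmomatic 0.35. The reads were aligned to GRCm38 with TopHat2 2.1.0 (versions from the submitters' processing notes) and assigned to Ensembl genes by htseq-count. What was deposited are raw counts of each gene in each library. The counting mode and strand setting are not given in the sources used here, so antisense partners of *Bnip3*, *Dnm1l* and *Fkbp8* may share reads. Lines of the counter that name no gene (unassigned, ambiguous or not unique) were removed before library sizes were computed.

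Following the study's methods, a gene was dropped where 3 or more libraries had under 1 CPM, TMM factors were computed (0.957 to 1.04), and edgeR 4.0.16 (R 4.3.3) ran the exact test with common and tagwise dispersions, a prior count of 0.125 and an FDR threshold of 0.05. SE and 95% intervals are from DESeq2 1.42.0. CPM are counts scaled to the TMM-adjusted library size. TPM used the union of exons of GENCODE M21, in which 37693 of 39179 identifiers were found. The tests were first tested on simulated data. The 10 genes and the gene lists were chosen with earlier results of these data known. Named genes are the 10 genes, up to 4 genes per list with the smallest FDR, the 3 nearest profiles of *Bnip3* and *Mgarp*, and markers of cell types. *Opa1*, *Fis1*, *Mff*, *Hspa9*, *Atg4c*, *Pfkfb3* and *Lonp1* fall outside this rule and were named after their values were seen. Some genes of the lists are not reported here. Alternatives were other filters, scalings and tests and each library left out in turn. The count without *Mgarp* and the ratios by longest transcript were added after the data were seen. Intervals cover counting error and the spread of these libraries only. Figures were drawn with matplotlib 3.10.9.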

Additional observations from a re-analysis of the deposited data

How the results depend on the processing

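The 13 alternative fits (3 filters, 2 scalings, another dispersion, quasi-likelihood tests without and with a replicate block, DESeq2's Wald test, and each library left out) changed no call among *Bnip3*, *Bnip3l* and, where it was tested, *Mgarp*. *Fundc1* and *Pink1* were each called in 9 of 13. The quasi-likelihood test called 567 genes higher and 487 lower against 1012 and 810 by the exact test. With the replicate block it called 477 higher and 308 lower, 3 of the 10 genes higher (*Pink1* and *Fundc1* had FDRs of 0.0568 and 0.0594) and 4 of the pathway genes lower against 7. Of its 785 calls, 784 were also made by the exact test, and deviations of same-numbered libraries correlated with r = 0.027 across genes. Whether same-numbered samples were handled together is not stated in the sources used here, and this value cannot decide it. With each library left out, 447 to 1109 genes were called higher and 250 to 856 lower, 2 to 4 of the 10 genes higher (*Mgarp* was not tested without either TRC library), and 4 to 8 pathway genes lower, where a lone library is assumed to vary like the other group. The sign turned only for values near 0 or with split replicates. *Dnm1l* was at 0.0034 and 0.00049 with the filters of 1 CPM in 3 samples and of 10 counts in every sample and from −0.042 to 0.034 with a library left out, *Fkbp8* from −0.026 to 0.23 and *Ppargc1a* from −0.80 to 0.52. Scaling by library size alone moved the median of all genes to −0.02. The causes were not tested. Depth limits *Mgarp* in parental cells, at 20 and 24 counts.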

Other observations

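*Lonp1*, the main protease of the mitochondrial matrix and a gene named after its values were seen, showed split replicates in both groups. Parental replicates 1 and 3 had 451 and 226 CPM, and TRC replicates 1 and 3 had 255 and 484 CPM. The log2 fold change was 0.13 and the groups overlapped. The gap between the libraries of either group was larger than the difference between the groups.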
